A study of Mus musculus with 48 samples.

Results

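The genes described here are 10 genes of cysteine, taurine and glutathione metabolism, Cdo1, Csad, Cth, Cbs, Gclc, Gclm, Gss, Gpx1, Gpx3 and Gpx4, out of 29801 genes in an RNA sequencing table of whole mouse tibia. They were picked by name from the table, with the diet results of the same mice already known. Their differences between diets are therefore a description, and nothing is read from the diet calls reported for them. All 10 were found, and 8 of them averaged 1 FPKM or more over the 12 mice and entered the test across 13590 genes. FPKM counts sequenced fragments relative to the length of the transcript and to the size of the library, so levels of different genes can be compared. Cth and Cbs stayed below that level.

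RNA came from the whole tibia, bone and marrow together, of male C57Bl6J mice, 3 in each of 4 groups. Young CR mice began caloric restriction (CR) at 10 weeks of age, and young AL mice of the same age had food ad libitum (AL). Aged CR mice began at 15 to 18 months, and aged AL mice were their age-matched controls with free access to food. The intervention ran for 8 weeks, and the ration was cut in steps, 10% less food in week 1, 20% less in week 2 and 40% less from week 3 to the end. CR mice received NIH-31/NIA chow, which is fortified with micronutrients, and AL mice received plain NIH-31 chow, so the smaller ration and the change of chow cannot be told apart. The study also operated on tibiae of mice in its bone healing experiment 3 weeks before the end of the diets, and the labels do not say whether the sequenced tibiae were intact. A value from such a bone is an average over its bone, blood-forming and fat cells.

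Cysteine is made from methionine by transsulfuration, in which Cbs joins homocysteine to serine and Cth splits the product to release cysteine. Cysteine then has competing fates. Cdo1 oxidizes it to cysteine sulfinic acid, which Csad decarboxylates to hypotaurine on the way to taurine, while Gclc and Gclm, the catalytic and the modifier subunit of glutamate-cysteine ligase, join it to glutamate in the limiting step of glutathione synthesis, and Gss adds glycine. The glutathione peroxidases use glutathione to reduce peroxides: Gpx1 in the cytosol, Gpx3 as a secreted plasma enzyme, and Gpx4 on peroxidized membrane lipids, where it guards against ferroptosis. In the mouse, Cdo1 is known to be abundant in liver and in white fat.

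Gpx1, Gpx3 and Gpx4 are selenoproteins. Each carries an in-frame TGA, elsewhere a stop codon, that is read as selenocysteine in the active site. The coding sequence around this codon was compared between the 3 transcripts. The 27 bases centred on that codon are shown 5′ to 3′ as the transcript sequence of GENCODE M21 (GRCm38, plus strand for all 3), with the selenocysteine codon in capitals and 12 coding bases on either side.
Gpx1 (codon at chr9:108339451-108339453): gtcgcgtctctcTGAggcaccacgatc
Gpx3 (codon at chr11:54907256-54907258): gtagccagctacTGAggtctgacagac
Gpx4 (codon at chr10:80054737-80054739): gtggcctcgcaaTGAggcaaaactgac
Outside the codon, 9 of 24 bases were the same in all 3 transcripts. Gpx1 and Gpx4 shared 14 of the 24 bases, Gpx3 and Gpx4 shared 13, and Gpx1 and Gpx3 shared 10. Gpx2, a further selenoprotein peroxidase best known from the gut, was listed at 0 FPKM in all 12 mice.

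The 10 genes spanned a wide range of levels, and the order was much the same in every mouse. Gpx1 was highest, with a median of 1905 FPKM over the 12 mice, and ranked between 16 and 29 among all genes of the table in each mouse. Gpx3 and Gpx4 followed at medians of 148 and 128 FPKM, and Gpx3 was above Gpx4 in only 8 of 12 mice, so these neighbours were not separated. Gclm had a median of 70.5 FPKM and Gclc of 27.2 FPKM, and Gclm was above Gclc in 12 of 12 mice. Cdo1 at a median of 9.81 FPKM, Gss at 6.87 FPKM and Csad at 6.14 FPKM formed the next step, with Cdo1 above Gss in 8 of 12 mice and Gss above Csad in 10 of 12. The genes of transsulfuration were at the bottom, Cth at a median of 0.147 FPKM and Cbs at 0.0199 FPKM. The panels of single-mouse values show these levels by group.

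**Figure D1:**
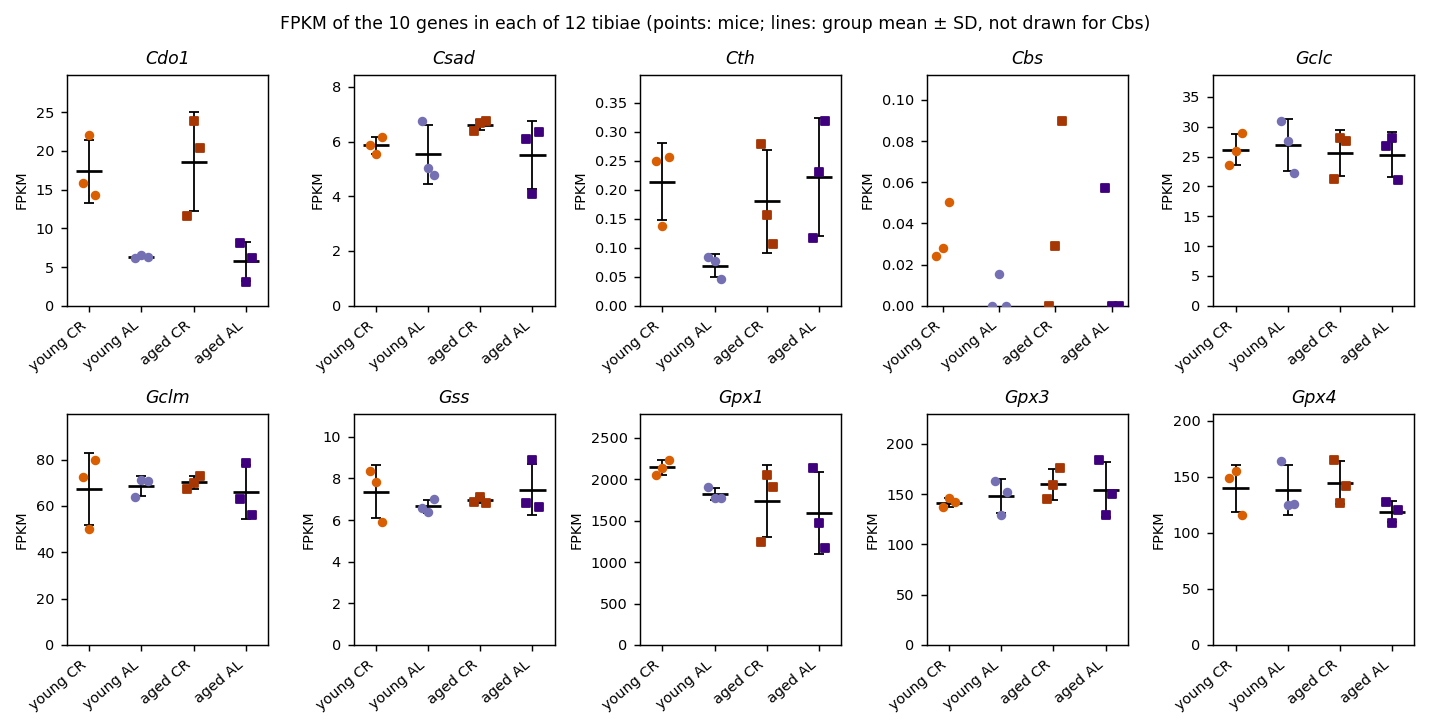
FPKM of each of the 10 genes (vertical axes, linear, starting at 0, scaled per gene) in young CR, young AL, aged CR and aged AL mice; each point is 1 mouse, horizontal lines are group means and bars the SD of 3 mice, left out for Cbs, which is listed at 0 in 5 mice. Cdo1 is the gene whose CR mice lie above the AL mice at both ages, from 14.3 to 22.0 FPKM against 6.13 to 6.55 FPKM in young mice.

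Cdo1 (ENSMUSG00000033022, chr18:46713193-46728395, minus strand, GRCm38) is the dioxygenase that commits cysteine to taurine and sulfate. In young mice it was at 15.8, 22.0 and 14.3 FPKM under CR, against 6.13, 6.55 and 6.35 FPKM under AL. The 3 AL mice were close together, and the lowest CR mouse was above all of them. In aged mice it was at 11.6, 23.9 and 20.4 FPKM under CR, against 8.04, 3.03 and 6.11 FPKM under AL, again without overlap, although aged CR mouse 5, at 11.6 FPKM, and aged AL mouse 13, at 8.04 FPKM, came close to each other. Group means were 17.3 ± 4.07 FPKM in young CR and 6.34 ± 0.211 FPKM in young AL mice, and 18.6 ± 6.35 FPKM in aged CR and 5.73 ± 2.53 FPKM in aged AL mice (SD, n = 3 each). The ratios of these means, CR over AL, were 2.74 in young and 3.25 in aged mice.

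On the log2(FPKM + 1) scale the differences, CR minus AL, were 1.30 ± 0.30 in young mice, 1.56 ± 0.30 in aged mice and 1.43 ± 0.21 over both ages (SE of the fit). Adding 1 FPKM before the logarithm lowers the fold of genes at this level. Over both ages Cdo1 was called higher at an adjusted p under 0.05, as were 0.191% of all genes tested (0.258% in either direction). It was called in neither age alone, where 0.0662% of genes were called in young and 0% in aged mice. Because Cdo1 was listed with this contrast known, nothing is read from that call. The call over both ages was lost without any 1 of the 6 young mice, aged CR mouse 6 or aged CR mouse 7, although the log2 difference stayed between 1.27 and 1.58 in the 12 fits that each left out 1 mouse. It was also lost when genes of low level entered the test.

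Results for age were also known when the genes were listed, so the p-values for age are not independent of that choice. The interaction of diet and age is the difference between the diet differences of the ages. By limma 0 of the 8 tested genes were called for it, beside 0% of all genes, and for these genes it is given with its SE alone. Over both diets the log2 difference of Cdo1, aged minus young, was -0.07 ± 0.21 (SE; limma, adjusted p = 0.901). The diet difference was larger in aged than in young mice by 0.26 ± 0.42 on the log2 scale (SE), a value within its own error. Within groups, Cdo1 varied more from mouse to mouse than most genes, with a residual SD of 0.42 on the log2 scale, larger than that of 95.2% of the genes tested.

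In whole bone, more cells of a type and more RNA per cell cannot be told apart. The summed level of 12 adipocyte markers (Adipoq, Plin1, Plin4, Cidec, Lep, Retn, Adig, Cfd, Lipe, Fabp4, Pparg and Car3) ran from 681 to 941 FPKM in young CR mice, against 369 to 409.5 FPKM in young AL mice. In aged mice the sum ran from 701 to 1233 FPKM under CR, against 363 to 689 FPKM under AL, and none of the 12 markers was at 0 in any mouse. In young mice 12 of the 12 markers had CR mice all above AL mice, beside 10.1% of all genes tested, and in aged mice 5 did, beside 5.70%. Fabp4, which endothelial cells express too, held the largest part of the sum, with a mean of 330.1 FPKM over the 12 mice.

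Cdo1 and the adipocyte sum moved together from mouse to mouse. Over the 12 mice the Pearson r of their log2 values was 0.92 and Spearman's rho 0.92, a description over mice that share groups and 1 normalization. With the mean of each group taken off, r was 0.96, and without young AL mouse 9 and aged AL mouse 14, the mice farthest from the median of the sum, r was 0.90 over the remaining 10 mice. It was the highest of 88 such relations, 8 genes with 11 lists of cell type markers. The part of adipocytes in the diet difference of Cdo1 was not tested.

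Per 1000 FPKM of adipocyte markers, Cdo1 was at 17.5, 23.4 and 21.0 FPKM in young CR mice, against 16.6, 16.7 and 15.5 FPKM in young AL mice. The same ratio was 16.5, 19.4 and 17.5 FPKM in aged CR mice, against 11.7, 8.34 and 10.2 FPKM in aged AL mice. Relative to the marker sum every CR mouse was above the AL mice of its age, by a smaller factor than in the raw levels. Aged AL mice were the lowest of the 4 groups. The group means of this ratio were 20.6 ± 2.93 in young CR and 16.3 ± 0.664 in young AL mice, and 17.8 ± 1.45 in aged CR and 10.1 ± 1.67 in aged AL mice (SD, n = 3 each). The ratio depends on which markers carry the sum. In young mice CR over AL was 1.84 for the group means of Fabp4, the largest part of it. Retn (4.35), Cidec (3.68), Adig (3.49), Cfd (3.37), Lep (3.02) and Plin1 (2.86) were above the 2.74 of Cdo1 there. Adipoq (2.16), Car3 (2.13), Plin4 (1.70), Lipe (1.56) and Pparg (1.41) were below it, as was Fabp4. In aged mice Retn alone (4.62) was above the 3.25 of Cdo1.

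**Figure D2:**
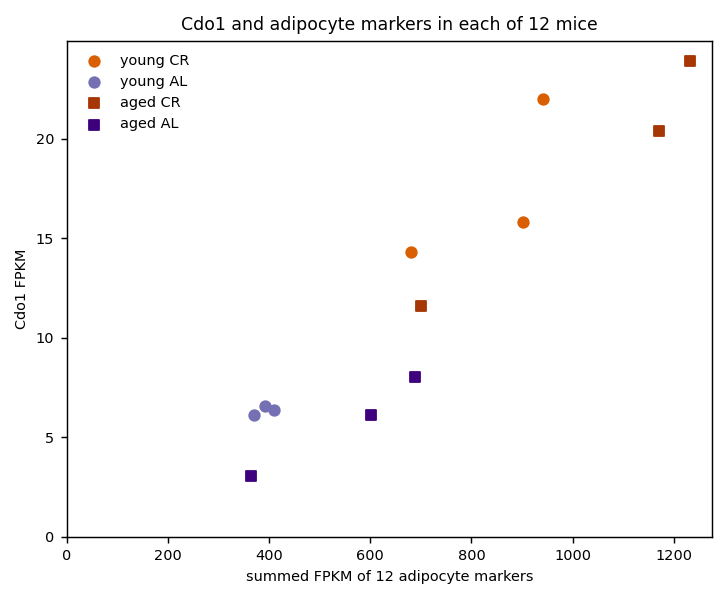
Cdo1 in FPKM (vertical axis) against the summed FPKM of 12 adipocyte markers (horizontal axis), both linear, 1 point per mouse, circles for young and squares for aged mice. Mice with more adipocyte marker RNA had more Cdo1, with the highest point an aged CR mouse at 1233 FPKM of markers and 23.9 FPKM of Cdo1 and the lowest an aged AL mouse at 363 and 3.03 FPKM.

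The 5 genes whose log2 levels followed Cdo1 most closely over the 12 mice were Ghr (the growth hormone receptor, Pearson r = 0.97), Retn (the adipokine resistin, 0.97), Ttyh2 (0.96), Gstz1 (a glutathione S-transferase of tyrosine breakdown, 0.96) and Ephx2 (soluble epoxide hydrolase, 0.95). After group means were taken off, r was 0.96 for Ghr, 0.84 for Retn, 0.84 for Ttyh2, 0.90 for Gstz1 and 0.87 for Ephx2. Retn is also 1 of the 12 adipocyte markers. These 5 were taken from the top of all tested genes and are a description over 12 mice.

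Csad (ENSMUSG00000023044, chr15:102176999-102204724, minus strand) makes hypotaurine, the step after Cdo1. It was at 5.88, 5.53 and 6.16 FPKM in young CR mice, against 6.76, 5.05 and 4.79 FPKM in young AL mice, and the groups overlapped. In aged mice it was at 6.38, 6.67 and 6.74 FPKM under CR, against 6.11, 4.09 and 6.34 FPKM under AL, where every CR mouse was above every AL mouse but 2 of the 3 AL mice lay close below. Log2 differences, CR minus AL, were 0.08 ± 0.14 in young mice, 0.24 ± 0.14 in aged mice and 0.16 ± 0.10 over both ages (SE). In aged mice the difference was between 0.07 and 0.34 when 1 mouse was left out. The lowest value of all 12 mice was that of aged AL mouse 14, which was also the lowest for Cdo1 and Gpx4 and stood farthest from its own group over all genes.

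With Cdo1 higher and Csad near level, their ratio differed between diets. Cdo1 over Csad was 2.99 ± 0.869 in young CR and 1.18 ± 0.234 in young AL mice, and 2.81 ± 0.904 in aged CR and 1.01 ± 0.289 in aged AL mice (SD, n = 3 each). In both ages every CR mouse had a higher ratio than every AL mouse, the closest being 1.82 in aged CR mouse 5 and 1.32 in aged AL mouse 13. Csad did not differ detectably with age (log2 difference, aged minus young, 0.07 ± 0.10, limma, adjusted p = 0.784), and its diet difference was larger in aged than in young mice by 0.16 ± 0.20 (SE).

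The genes most like Csad over the 12 mice were Slc26a11 (a sulfate and anion transporter, Pearson r = 0.93), Rnf181 (0.90), Rnf215 (0.89), Mtss1l (0.88) and Phf1 (0.87). None of these is an adipocyte marker. The r of Csad with the adipocyte sum was 0.59, and 0.75 without young AL mouse 9 and aged AL mouse 14. Its highest r with a marker list was 0.78, with the marrow stromal cell markers, and 0.40 without aged CR mouse 7 and aged AL mouse 14. The stromal and the adipocyte list share Adipoq, so these relations are not separate. The part of either cell type was not tested for Csad. Csad and Zfp740 overlap on opposite strands over 1476 bases, and Zfp740 averaged 21.3 FPKM. The libraries were stranded by protocol, and the sources used here do not say how strand entered the quantification.

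Cth and Cbs, the transsulfuration enzymes, were at or near 0 in tibia, and no test was run. Cth (ENSMUSG00000028179, chr3:157894248-157925077, minus strand) was at 0.249, 0.137 and 0.256 FPKM in young CR mice, against 0.0833, 0.0769 and 0.0466 FPKM in young AL mice. It was at 0.279, 0.156 and 0.106 FPKM in aged CR mice, against 0.116, 0.230 and 0.319 FPKM in aged AL mice. The young groups did not overlap and the aged ones did, with the highest value of all in aged AL mouse 15. Since read depth is unknown, the counting error of such low levels is unknown too.

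Cbs (ENSMUSG00000024039, chr17:31608894-31637238, minus strand) was at 0.0244, 0.0280 and 0.0503 FPKM in young CR mice, against 0, 0.0154 and 0 FPKM in young AL mice. It was at 0, 0.0288 and 0.0899 FPKM in aged CR mice, against 0.0571, 0 and 0 FPKM in aged AL mice. It was thus listed at 0 in 5 of 12 mice, and the aged groups overlapped. The levels of the 2 enzymes in liver and kidney, where they are known to be abundant, were not part of this study. No fold is given for Cbs because mice at 0 stand in both diets.

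Gclc, Gclm and Gss, the enzymes of glutathione synthesis, were at similar levels in all 4 groups. Gclc (ENSMUSG00000032350, chr9:77754535-77794485, plus strand) was at 23.6, 26.0 and 28.9 FPKM in young CR mice, against 31.0, 27.6 and 22.2 FPKM in young AL mice. It was at 21.2, 28.1 and 27.6 FPKM in aged CR mice, against 26.8, 28.1 and 21.1 FPKM in aged AL mice. The diets overlapped at both ages, and the log2 difference over both ages was -0.01 ± 0.11 (SE). Gclc followed the summed level of 12 erythroid markers, with a Pearson r of 0.82 and Spearman's rho of 0.79 over the 12 mice, 0.87 with group means taken off and 0.83 without young CR mouse 3 and aged CR mouse 6. The erythroid sum ran from 1714 to 2572 FPKM in young CR and 1656 to 2011 FPKM in young AL mice. It ran from 1441 to 2430.5 FPKM in aged CR and 1443 to 2120.3 FPKM in aged AL mice.

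Gclm (ENSMUSG00000028124, chr3:122245557-122270732, plus strand), which lowers the feedback inhibition of Gclc by glutathione, was at 72.3, 49.9 and 79.8 FPKM in young CR mice, against 63.8, 71.3 and 70.8 FPKM in young AL mice. It was at 67.5, 70.1 and 72.8 FPKM in aged CR mice, against 63.2, 78.7 and 55.9 FPKM in aged AL mice. The lowest and the highest mouse of all 12 were both young CR mice, and the log2 difference over both ages was 0.02 ± 0.11 (SE). Gclm over Gclc was 2.58 ± 0.597 in young CR and 2.61 ± 0.564 in young AL mice, and 2.77 ± 0.367 in aged CR mice (SD, n = 3 each), with the mean of aged AL mice between these. The RNA of Gclm thus exceeded that of Gclc in all 4 groups, by a factor of 1.92 to 3.19 in single mice. The subunit proteins were not measured, and a difference of the ratio between groups was not tested. A pseudogene, Gm6061, overlaps Gclm on the same strand over 492 bases and averaged 194 FPKM. This overlap is of whole gene spans, introns included, and whether reads were divided between them was not tested. Gm17494, a noncoding transcript on the opposite strand, covers 14775 bases of Gclm and averaged 6.11 FPKM.

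Gss (ENSMUSG00000027610, chr2:155563181-155592810, minus strand) was at 8.36, 7.84 and 5.91 FPKM in young CR mice, against 6.57, 6.38 and 7.01 FPKM in young AL mice. It was at 6.89, 7.12 and 6.84 FPKM in aged CR mice, against 6.84, 8.88 and 6.65 FPKM in aged AL mice. Groups overlapped at both ages, with log2 differences of 0.12 ± 0.12 in young and -0.08 ± 0.12 in aged mice (SE). Acss2, an acetyl-CoA synthetase on the opposite strand, covers 22544 bases of the gene. With age, the log2 differences, aged minus young, were -0.06 ± 0.11 for Gclc, 0.01 ± 0.11 for Gclm and 0.04 ± 0.09 for Gss (SE; limma, adjusted p = 0.836, 0.982 and 0.877).

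None of the 3 glutathione peroxidases had CR and AL mice apart at both ages. Gpx1 (ENSMUSG00000063856, chr9:108338903-108340343, plus strand) was at 2055, 2136 and 2229.9 FPKM in young CR mice, against 1905, 1776 and 1776 FPKM in young AL mice. These young groups did not overlap, with means of 2140.5 ± 87.4 FPKM under CR and 1819 ± 74.6 FPKM under AL (SD, n = 3 each) and a ratio of 1.18. In aged mice Gpx1 was at 1237, 2055 and 1905 FPKM under CR, against 2136, 1473 and 1169 FPKM under AL, which overlapped across nearly the whole range. Log2 differences, CR minus AL, were 0.23 ± 0.21 in young and 0.13 ± 0.21 in aged mice (SE).

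The quantile normalization of the table bears on Gpx1, because it gives every mouse the same set of values and the gene takes the value of its rank. Only 8 distinct values occur among its 12, and 2055 FPKM in young CR mouse 1 and aged CR mouse 6 stands for rank 18 in both. The young difference is that between ranks 16 to 18 under CR and 19 to 20 under AL. The aged mice spread further, over ranks 18 to 27 under CR and 17 to 29 under AL.

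Gpx1 was lower in aged than in young mice by a log2 difference of -0.29 ± 0.15 (SE; limma, adjusted p = 0.368), which did not pass. Its lowest mice were aged AL mouse 15, at 1169 FPKM, and aged CR mouse 5, at 1237 FPKM, and the summed level of 12 neutrophil markers was lowest in the same mice, at 31131 and 32939 FPKM against 39889 to 49759 FPKM in the other 10. That gap comes mainly from S100a8, which took a lower rank value in these mice, 6689 FPKM in both against 15154 FPKM in the other 10. Of the 12 markers, 2 (S100a8 and Ngp) were lower in both mice than in all the others, while Prtn3 was highest in aged CR mouse 5 and Cxcr2 in aged AL mouse 15. Gpx1 and the neutrophil sum had a Pearson r of 0.90 and a Spearman's rho of 0.64 over the 12 mice, and r was 0.57 without those 2 mice, so the relation rests largely on them. Summed without S100a8 and S100a9, an alternative chosen after seeing the data, the other 10 markers were lowest in aged AL mouse 14, at 7177 FPKM, and r with Gpx1 was 0.68. With the erythroid sum its r was 0.66. The part of either cell type was not tested.

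Gpx3 (ENSMUSG00000018339, chr11:54902453-54910377, plus strand), the extracellular peroxidase, was at 137, 146 and 142 FPKM in young CR mice, against 163, 129.5 and 152 FPKM in young AL mice. It was at 145, 159 and 176 FPKM in aged CR mice, against 184, 129.5 and 150.0 FPKM in aged AL mice. AL mice held both the lowest and the highest values at each age, and the log2 difference over both ages was -0.00 ± 0.09 (SE). It was higher in aged than in young mice by 0.11 ± 0.09 on the log2 scale (SE; limma, adjusted p = 0.58), which passed only when a quality weight per mouse was used, at a difference of 0.25 and beside 13.23% of all genes called for age with that weight. The genes most like it over the 12 mice were Cdkl3 (Pearson r = 0.85), Bgn (biglycan, a matrix proteoglycan, 0.85), Apbb2 (0.84), Numa1 (0.83) and Arhgap31 (0.82), a lower likeness than that found for Cdo1 or Csad.

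Gpx4 (ENSMUSG00000075706, chr10:80047166-80056439, plus strand) was at 149, 155 and 116 FPKM in young CR mice, against 164, 125 and 126 FPKM in young AL mice. It was at 165, 127 and 142 FPKM in aged CR mice, against 128, 109 and 120.0 FPKM in aged AL mice. The aged groups overlapped only by aged CR mouse 6, at 127 FPKM, and aged AL mouse 13, at 128 FPKM. Log2 differences, CR minus AL, were 0.02 ± 0.14 in young and 0.28 ± 0.14 in aged mice (SE), and the aged value was larger by 0.26 ± 0.20 (SE). The table gives 1 value for the gene, so its cytosolic, mitochondrial and nuclear forms are not told apart, and reads of the related pseudogene Gpx4-ps2 could have been divided.

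Across the 8 tested genes, 1 (Cdo1) was called for diet over both ages and 0 in young or aged mice alone. At an unadjusted limma p under 0.05, Cdo1 alone was higher at each age, beside 5.79% (young) and 4.50% (aged) of all genes. An unequal-variance test on FPKM called none of the 8 after adjustment in either age. Their median log2 difference, CR minus AL, was 0.05 in young mice, 0.12 in aged mice and 0.09 over both ages, beside 0.01, -0.00 and 0.00 for all genes tested. CR mice lay all above AL mice for 2 of the 8 in young mice (Cdo1 and Gpx1), beside 10.1% of all genes, and for 2 of the 8 in aged mice (Cdo1 and Csad), beside 5.70%. Cdo1 alone did so at both ages, beside 1.53% of all genes. Nothing is read from these calls and shares.

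For age, none of the 8 passed the limma test and none had an unadjusted p under 0.05, beside 0.758% of all genes called and 16.6% at that unadjusted p. The median difference, aged minus young, was -0.02, the same as for all genes. The median of the 8 interaction values was 0.14, against -0.01 for all genes. A missed threshold with 3 mice a group does not show that the levels were equal.

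**Figure D3:**
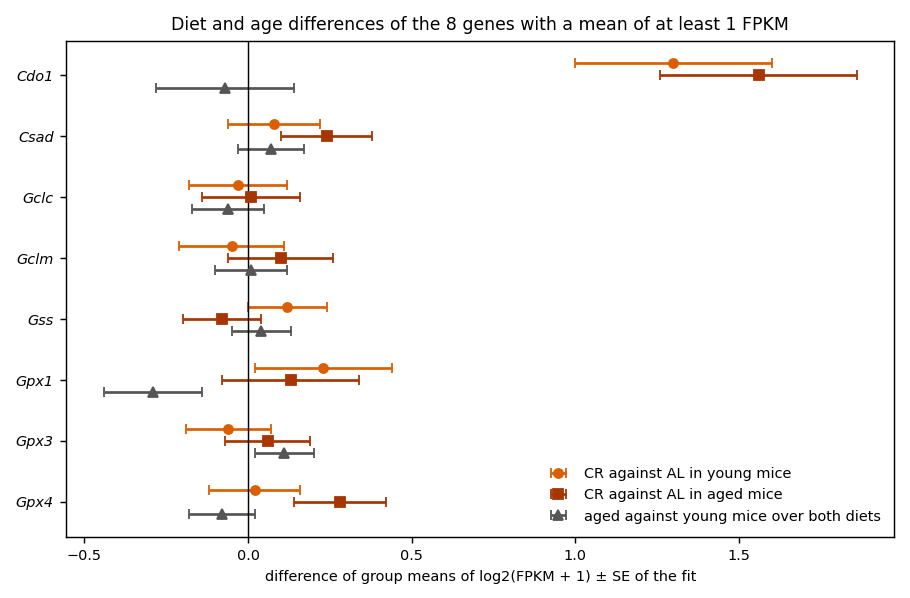
Differences of group means of log2(FPKM + 1), with the SE of the fit as bars, for the 8 tested genes; circles are CR minus AL in young mice, squares CR minus AL in aged mice and triangles aged minus young over both diets. Cdo1 lies at 1.30 and 1.56 for diet and at -0.07 for age, while the diet values of the other 7 genes lie between -0.08 and 0.28.

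Around these 10 genes, 11 lists of 135 related genes were examined, of which 129 were in the table and 110 could be tested. By limma, none was called for diet in young mice, in aged mice or over both ages. With unadjusted p-values under 0.05, 11 were higher and 0 lower in young mice, beside 5.79% and 5.24% of all genes. In aged mice 12 were higher and 2 lower, beside 4.50% and 3.22% of all genes. Over both ages 18 were higher and 0 lower, beside 7.42% and 6.45% of all genes. The unequal-variance test on FPKM likewise called 0 of them after adjustment in either age, and without adjustment 13 in young and 5 in aged mice, beside 8.65% and 3.58% of all genes in that test. Over both ages, 83 of the 110 had positive and 27 negative log2 differences, with a median of 0.07 against 0.00 for all genes tested. The count depended on the mice weighed: 9 of the 110 were called, all higher under CR, when each mouse had a quality weight, beside 6.79% of all genes, and 8 when mice 14 (aged AL) and 5 (aged CR) were left out, beside 3.25%.

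The glutathione S-transferases, which attach glutathione to reactive compounds, had a median log2 difference of 0.17 over both ages, and 0 of 17 were called. Before adjustment, 7 of 17 were higher and 0 lower at 0.05, beside 7.42% and 6.45% of all genes. The list was chosen with earlier results of these data known, so nothing is read from that count. Gstz1 was at 11.1, 12.1 and 10.6 FPKM in young CR mice, against 8.76, 9.40 and 8.53 FPKM in young AL mice, and at 10.5, 13.8 and 13.2 FPKM in aged CR mice, against 9.29, 8.13 and 9.27 FPKM in aged AL mice. The groups were apart at both ages, and the log2 difference over both ages was 0.38 ± 0.07 (SE; limma, adjusted p = 0.0579). Gstm2, a mu-class transferase, had a log2 difference of 0.49 ± 0.12 (adjusted p = 0.102). Reads of mu- and alpha-class transferases may be shared between close copies, so their levels are uncertain.

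Among 13 regulators and further targets of NRF2, the factor that responds to oxidants, the median log2 difference over both ages was 0.02. The 2 genes described next were picked for the smallest p in that comparison, so nothing is read from their distance to the median. Me1, the malic enzyme that makes NADPH for glutathione reduction and for fat synthesis, was at 4.32, 5.05 and 2.46 FPKM in young CR mice, against 1.29, 1.74 and 1.40 FPKM in young AL mice. In aged mice it was at 2.92, 3.43 and 5.03 FPKM under CR, against 2.41, 1.68 and 2.24 FPKM under AL. The diets were apart at both ages, and the log2 difference over both was 0.78 ± 0.15 (SE; limma, adjusted p = 0.0579). Hmox1, heme oxygenase 1, was at 206, 244 and 300.3 FPKM in young CR mice, against 179, 174 and 179 FPKM in young AL mice, and at 227, 300.3 and 313 FPKM in aged CR mice, against 216, 106 and 156 FPKM in aged AL mice. Its log2 difference over both ages was 0.66 ± 0.16 (adjusted p = 0.0977). Gclc and Gclm, also known NRF2 targets, had -0.01 and 0.02.

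In taurine metabolism beyond Csad, 0 of 4 tested genes were called. Fmo1, a flavin monooxygenase that can oxidize hypotaurine to taurine, had a log2 difference of 0.56 ± 0.16 over both ages (SE; limma, adjusted p = 0.161), and Ado, which makes hypotaurine from cysteamine, had 0.05 ± 0.06 (adjusted p = 0.77). The median of the 4 was 0.03. In cysteine breakdown and sulfide oxidation all 9 tested genes were higher under CR in young mice, but 6 were higher and 3 lower in aged mice. Over both ages their log2 differences ran from 0.00 to 0.34, with a median of 0.14 and 0 called. Tst (rhodanese) had 0.34 ± 0.11 (adjusted p = 0.194) with the diets apart at both ages, and Suox (sulfite oxidase, which removes the sulfite formed downstream of Cdo1) had 0.21 ± 0.07 (adjusted p = 0.234).

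Glutathione breakdown, recycling and transport held 18 tested genes, with a median of 0.10 and 0 called. Anpep, a membrane aminopeptidase, had a log2 difference of 0.37 ± 0.09 over both ages (SE; limma, adjusted p = 0.0931), and Lap3, a leucine aminopeptidase, had 0.16 ± 0.06 (adjusted p = 0.284). Gpx7 and Gpx8, peroxidases of the endoplasmic reticulum, had 0.11 ± 0.14 (adjusted p = 0.781) and 0.23 ± 0.16 (adjusted p = 0.549). In the 17 thioredoxins, peroxiredoxins, catalase and superoxide dismutases the median was 0.07 and 0 were called, with Sod3, the extracellular dismutase, at 0.29 ± 0.09 (adjusted p = 0.189) and Prdx6 at 0.12 ± 0.06 (adjusted p = 0.367). The methionine cycle, which feeds transsulfuration, had a median of -0.01 over 8 genes and 0 called, with Mat2b at -0.08 ± 0.06 (adjusted p = 0.568).

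Among the genes of selenium supply, Sepp1 differed most between diets. Sepp1, selenoprotein P, which carries selenium in plasma, was at 659, 508 and 486 FPKM in aged CR mice, against 361, 227 and 300.3 FPKM in aged AL mice. In young mice it was at 278, 313 and 418 FPKM under CR, against 272, 334 and 282 FPKM under AL, and there the groups overlapped. The log2 difference was 0.91 in aged mice (limma, adjusted p = 0.296), 0.17 in young mice (adjusted p = 0.783) and 0.54 ± 0.14 over both ages (adjusted p = 0.112), and the ages did not differ detectably in it (adjusted p = 0.999). Lrp8, the receptor that takes up selenoprotein P, had -0.17 ± 0.08 (adjusted p = 0.4). The median of the 10 genes of selenium transport and selenoprotein synthesis was 0.03, as was that of 10 further selenoproteins, where Vimp (Selenos) had 0.14 ± 0.06 (adjusted p = 0.356) and 2700094K13Rik (Selenoh) had -0.15 ± 0.07 (adjusted p = 0.397). No gene of either list was called for diet.

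**Figure D4:**
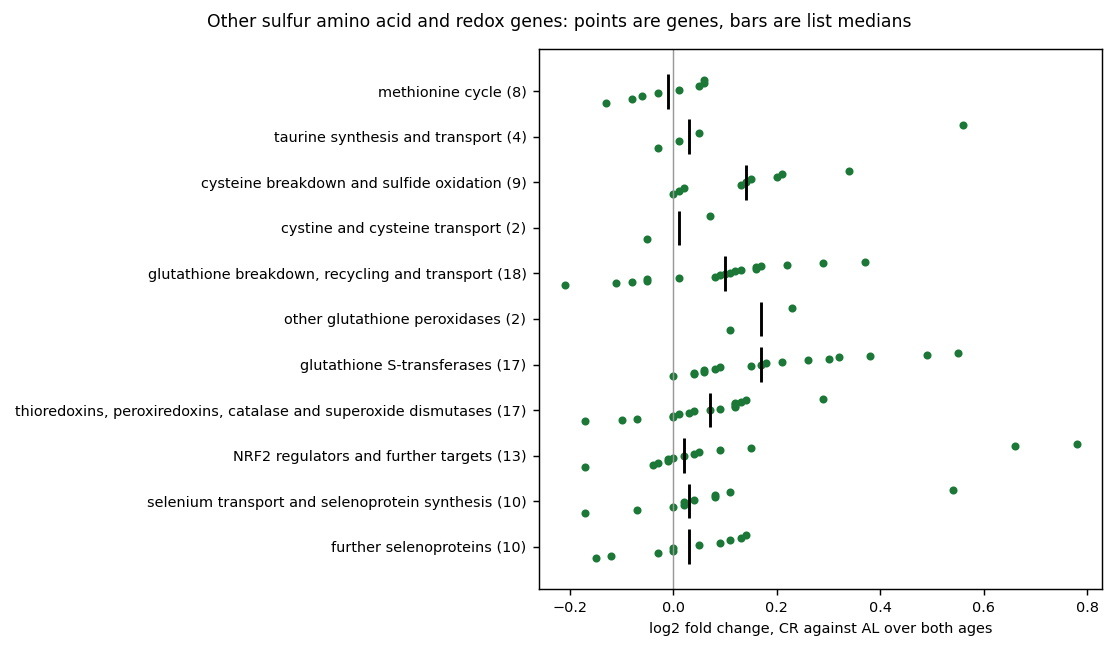
Log2 fold change, CR against AL over both ages (horizontal axis), of each tested gene (points) in 11 lists, with the number of tested genes in brackets and list medians as bars. List medians run from -0.01 to 0.17, and the points farthest to the right are Me1 at 0.78, Hmox1 at 0.66 and Fmo1 at 0.56.

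Age called 1 of the 110 genes, beside 0.758% of all genes tested, and nothing is read from that count. Slc3a2, the heavy chain that brings the cystine carrier and other amino acid carriers to the membrane, was at 59.6, 61.5 and 65.7 FPKM in aged CR mice and at 70.3, 69.6 and 70.6 FPKM in aged AL mice, against 52.4, 54.6 and 59.9 FPKM in young CR and 53.1, 50.8 and 55.4 FPKM in young AL mice. It was higher in aged mice by 0.28 ± 0.05 on the log2 scale (SE; limma, adjusted p = 0.0395). The aged CR mouse with 59.6 FPKM and the young CR mouse with 59.9 FPKM overlapped, and the call was lost without young CR mouse 1 or 2, any young AL mouse, aged CR mouse 5 or 7, or aged AL mouse 13 or 15. Ctns, the lysosomal cystine exporter, had 0.04 ± 0.09 for age (adjusted p = 0.868). Slc7a11, the cystine carrier itself, averaged 0.490 FPKM over the 12 mice and was not tested. No gene of the lists was called for the interaction of diet and age, beside 0% of all genes, where before adjustment 1 was higher and 4 were lower at 0.05, beside 2.37% and 1.86% of all genes.

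The whole table gives the frame for these values. FPKM summed to 636207 to 636212 per mouse because of the normalization, so neither depth nor total RNA can be compared. Markers of bone (osteoblasts and osteocytes), neutrophils, erythroid cells, macrophages, B cells and adipocytes were present in every mouse, and skeletal muscle markers summed to 148 to 1054 FPKM although adherent muscle had been removed from the bones. Aged AL mouse 14 and aged CR mouse 5 were farthest from the rest of their groups, with root mean square log2 differences of 0.435 and 0.378 over the tested genes against 0.243 to 0.362 in the other mice. Without both, the log2 difference of Cdo1, CR minus AL, was 1.30 in young and 1.53 in aged mice, and Cdo1 was then called in each age alone, beside 1.17% and 0.35% of all genes.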

How the data were processed

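The authors sequenced whole-tibia RNA of 12 mice as stranded mRNA libraries. The labels list 48 samples, as 4 technical repeats of each mouse. The deposited table holds a single column for each mouse, assigned to its group by the label its name matches. Per the submitters' processing notes and the study's methods, reads were checked with FastQC 0.11.8 and MultiQC 1.6, trimmed with Trim Galore 0.5.0, aligned to mm10 with STAR 2.6.1 and quantified as FPKM with StringTie 2.1.3b, and the authors quantile normalized the deposited FPKM in R 4.1.1. At any 1 rank the mice differed by no more than 0.00936 FPKM. Read counts cannot be recovered from such values, so depth and counting error are unknown and all errors given derive from differences between mice. An SD is the spread over the mice of 1 group. An SE comes from the model described next, which uses 1 variance per gene for the 4 groups, drawn toward that of genes at a similar level.

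Values were transformed as log2(FPKM + 1), which understates the fold of low genes. A filter at an average of 1 FPKM left 13590 genes, which entered 1 linear model with 4 group means (limma 3.58.1 under R 4.3.3, prior variance following the mean level), and p-values were Benjamini-Hochberg adjusted over all of them within each comparison and called under 0.05. The fit was tested on simulated data. An exact permutation test of 3 mice against 3 cannot go below p = 0.1 and could call no gene. The authors call the AL mice littermates of the CR mice, but which mice shared a litter is not listed.

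The 10 genes, the lists around them and the cell type markers were chosen with earlier results of these data known. Named beside the 10 genes were the list genes called in any comparison, up to 2 more per list by the smallest p for diet over both ages, and the 5 genes most correlated with Cdo1, Csad and Gpx3. The values of 1 gene so chosen are not reported here. Gpx2, Slc7a11 and genes that overlap or copy a named gene were added for their role or position. Alternatives were a pseudocount of 0.1, no filter, size-factor scaling, a weight for the quality of each mouse, mice left out 1 at a time, mice 14 (aged AL) and 5 (aged CR) left out together, only the 2 groups compared, and an unequal-variance test on FPKM as in the study, adjusted and not. Positions and codons are from GENCODE M21 on GRCm38, the assembly of mm10, a release the authors do not name. Overlaps between genes are those of whole gene spans, introns included.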

Additional observations from a re-analysis of the deposited data

How the results depend on the processing

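Depth is unknown, 3 mice a group leave wide errors, and a level of whole bone does not separate cell number from RNA per cell. No paired analysis was possible because no label links CR and AL mice of 1 litter, mouse numbers are not shared between groups, and the repeat numbers in the labels name technical repeats of 1 mouse. The diet difference of Cdo1 kept its direction under every alternative run, at 1.13 to 1.42 in young mice, 1.23 to 1.86 in aged mice and 1.27 to 1.58 over both ages on the log2 scale. Its call changed. Over both ages 0 of the 8 tested genes were called with no filter on low values, beside 0.03% of all genes. With 1 mouse left out 0 to 1 were called, beside 0.06% to 1.63%. In young mice 1 (Cdo1) was called with a quality weight per mouse, beside 2.24% of all genes. Cdo1 was also called without both aged AL mouse 14 and aged CR mouse 5 (beside 1.17%), or with only the 2 groups fitted (0.54%). The unequal-variance test without adjustment called 2 (Cdo1 and Gpx1), beside 8.65% of all genes. In aged mice 1 (Cdo1) was called with the quality weight (beside 1.42% of all genes) or without both mice 14 and 5 (0.35%). For age 1 (Gpx3) was called with the weight, beside 13.23% of all genes. Nothing is read from these calls.

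Of the 110 other genes, with the quality weight 2 were called under CR in the young, 3 in the aged, 9 for diet over both ages and 14 for age, beside 2.24%, 1.42%, 6.79% and 13.23% of all genes. Without both of those mice, 1 was called in young mice and 8 over both ages, beside 1.17% and 3.25% of all genes, and by the unequal-variance test without adjustment 13 in young and 5 in aged mice, beside 8.65% and 3.58%. With 1 mouse left out, 0 to 4 were called over both ages, beside 0.06% to 1.63% of all genes. The 4 were called without aged CR mouse 5 (beside 1.63%), and 1 was called without young CR mouse 3 (beside 0.12%). For age 0 to 2 were called, beside 0.15% to 1.62% of all genes, the 2 without young CR mouse 3 (beside 1.62%).

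Small age and interaction values that never passed also changed sign. For age, Cdo1 had 0.18 with the weight and 0.24 without both mice, Gclc 0.04 with the weight, Gclm -0.04 without both, and Gss -0.06 with the weight and -0.02 without both. For the interaction, Gpx1 had 0.09 without both and Gpx3 -0.03 with the weight. With 1 mouse left out, age values ran from -0.20 to 0.09 for Cdo1, -0.12 to 0.01 for Gclc, -0.09 to 0.08 for Gclm and -0.03 to 0.08 for Gss. Interaction values ran from -0.07 to 0.56 for Cdo1, -0.01 to 0.26 for Csad, -0.08 to 0.17 for Gclc, -0.05 to 0.29 for Gclm and -0.30 to 0.13 for Gpx1. The cause of these changes was not tested.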
